A study of Rattus norvegicus with 8 samples.

Results

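The 7 genes described here make the chains of MHC class I molecules and the machinery that loads them with peptide: the heavy chains RT1-CE16, RT1-T24-1 and RT1-M3-1, the light chain B2m, the peptide transporter subunits Tap1 and Tap2, and the peptide-trimming enzyme Erap1. They were chosen by name, as the transcript clusters whose only gene symbol in the platform's annotation table is one of these, and each gene had 1 cluster, so that they are 7 of the 7603 clusters with a single symbol and of 8793 clusters in all. A transcript cluster is a group of probe sets that stands for a gene, and its deposited value is a log2 intensity. MBP-EAE is an autoimmune encephalomyelitis that immunisation with the myelin protein MBP causes, a rat model of multiple sclerosis with inflammation of the spinal cord. Spinal cord RNA came from 4 female Lewis rats with MBP-EAE (217, 218, 219 and 241), which had been injected with 50 µg of MBP in Freund's incomplete adjuvant with M.Butiricium, and from 4 untreated female Lewis littermates as healthy controls (193, 194, 195 and 196). All cords were taken on day 13, at an age of 16 weeks by the sample labels (the study's methods give a younger age), and each rat had 1 array. The labels name MBP from guinea-pig brain, and the methods name recombinant MBP. The cords were frozen whole, so that the values mix all cells of the tissue, and more cells of a type and more RNA per cell cannot be told apart.

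MHC class I molecules show peptides from inside the cell to CD8 T cells, and their presence or absence is also read by NK cells. Proteasomes cut proteins in the cytosol, the Tap1 and Tap2 transporter carries the fragments into the endoplasmic reticulum, Erap1 trims them there, and a heavy chain bound to B2m takes up a peptide and travels to the surface. In the healthy nervous system class I expression is low in most cells, and the pathway is known as a target of interferons. In the rat, the genes of the heavy chains lie in the RT1 complex. In the GRCr8 assembly Tap2, Psmb8, Tap1 and Psmb9 are consecutive protein-coding genes between the class II genes RT1-DOb and RT1-DMb.

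RefSeq promoter windows, which run from 250 bases before to 50 after a gene's start, were given for 6 of the 7 genes, all but Erap1. The core of the interferon-stimulated response element (ISRE), taken as GAAA, any 2 bases and GAAA again on either strand, occurred in 3 of the 6, while 3.92% of the 33469 windows in the table held it. The windows of these 3 genes are shown because they hold it, and capitals mark the ISRE core. This exact pattern was not found in the windows of RT1-CE16 and RT1-M3-1, which were also higher in MBP-EAE, or of RT1-T24-1. Next to Tap1, the Psmb8 window held it (from base 247 on the opposite strand) and the Psmb9 window did not. Both genes were higher in MBP-EAE. Other forms of the ISRE were not searched for, so that a window without this pattern may still hold one. The windows come from the GRCr8 reference assembly, which is of another rat strain (BN), and each is written 5′ to 3′ on the strand of its gene. The window of Tap1 is chr20:4668494-4668793 (minus strand), that of Tap2 is chr20:4652247-4652546 (minus strand), and that of B2m is chr3:129549080-129549379 (plus strand).
Tap1: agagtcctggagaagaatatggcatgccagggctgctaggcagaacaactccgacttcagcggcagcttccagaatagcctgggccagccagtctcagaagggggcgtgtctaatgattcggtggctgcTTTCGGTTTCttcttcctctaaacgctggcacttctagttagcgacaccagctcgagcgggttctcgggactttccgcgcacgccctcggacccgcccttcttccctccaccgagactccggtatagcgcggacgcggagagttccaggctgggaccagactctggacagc
Tap2: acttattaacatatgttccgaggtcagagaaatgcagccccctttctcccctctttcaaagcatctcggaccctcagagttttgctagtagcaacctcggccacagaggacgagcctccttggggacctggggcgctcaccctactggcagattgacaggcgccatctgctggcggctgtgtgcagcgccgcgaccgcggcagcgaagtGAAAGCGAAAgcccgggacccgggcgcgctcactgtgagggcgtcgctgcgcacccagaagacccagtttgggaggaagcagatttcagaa
B2m: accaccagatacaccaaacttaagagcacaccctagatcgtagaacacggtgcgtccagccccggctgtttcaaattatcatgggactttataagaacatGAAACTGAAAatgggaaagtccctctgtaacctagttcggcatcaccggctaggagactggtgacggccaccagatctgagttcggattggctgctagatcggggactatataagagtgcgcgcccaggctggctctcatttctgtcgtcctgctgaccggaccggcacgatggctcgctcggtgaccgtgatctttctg
In the Tap1 window the core is read on the opposite strand from base 130, and in the Tap2 and B2m windows it is read on the gene's own strand from bases 210 and 101. A kB-like motif, taken as GGG, any 2 bases, TT, any base and CC on either strand and found in 5.00% of all windows, occurred in the windows of Tap1 (from base 196), B2m (from base 114 on the opposite strand) and RT1-CE16 (from base 120), and in none of them overlapped the ISRE core. The palindromic GAS motif TTCNNNGAA, found in 8.87% of all windows, occurred in that of RT1-M3-1 alone among the 6, and also in that of Psmb8. The windows of Tap1 and of its neighbour Psmb9, which is read in the opposite direction, share 44 bases, and the Tap1 core lies outside them. A match is a description of the letters, and no binding was measured.

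Of the 7 genes, 6 were higher in MBP-EAE and 1, RT1-T24-1, did not pass the test. Tap1 rose most, 4.24-fold, followed by Tap2 at 2.0-fold, Erap1 at 1.87-fold, RT1-M3-1 at 1.75-fold, RT1-CE16 at 1.56-fold and B2m at 1.5-fold. Each cluster was fitted with limma, with a Benjamini-Hochberg adjustment that took in all 8793 of them and a threshold of 0.05. By this test 6 of these 7 were higher, against 11.3% of all clusters, while 25.9% of all clusters passed in either direction. The median log2 fold change was 0.81 over the 7 genes and -0.10 over all clusters. In 6 of the 7 the lowest MBP-EAE value lay above the highest healthy value, which was so for 12% of all clusters, and in 0 of the 7 did the MBP-EAE values lie wholly below, as they did in 17.3% of all clusters. A rise of at least 2-fold was found for 2 of the 7 genes and 4.81% of all clusters. The genes were chosen with results of these arrays known, so that these counts are a description.

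**Figure D1:**
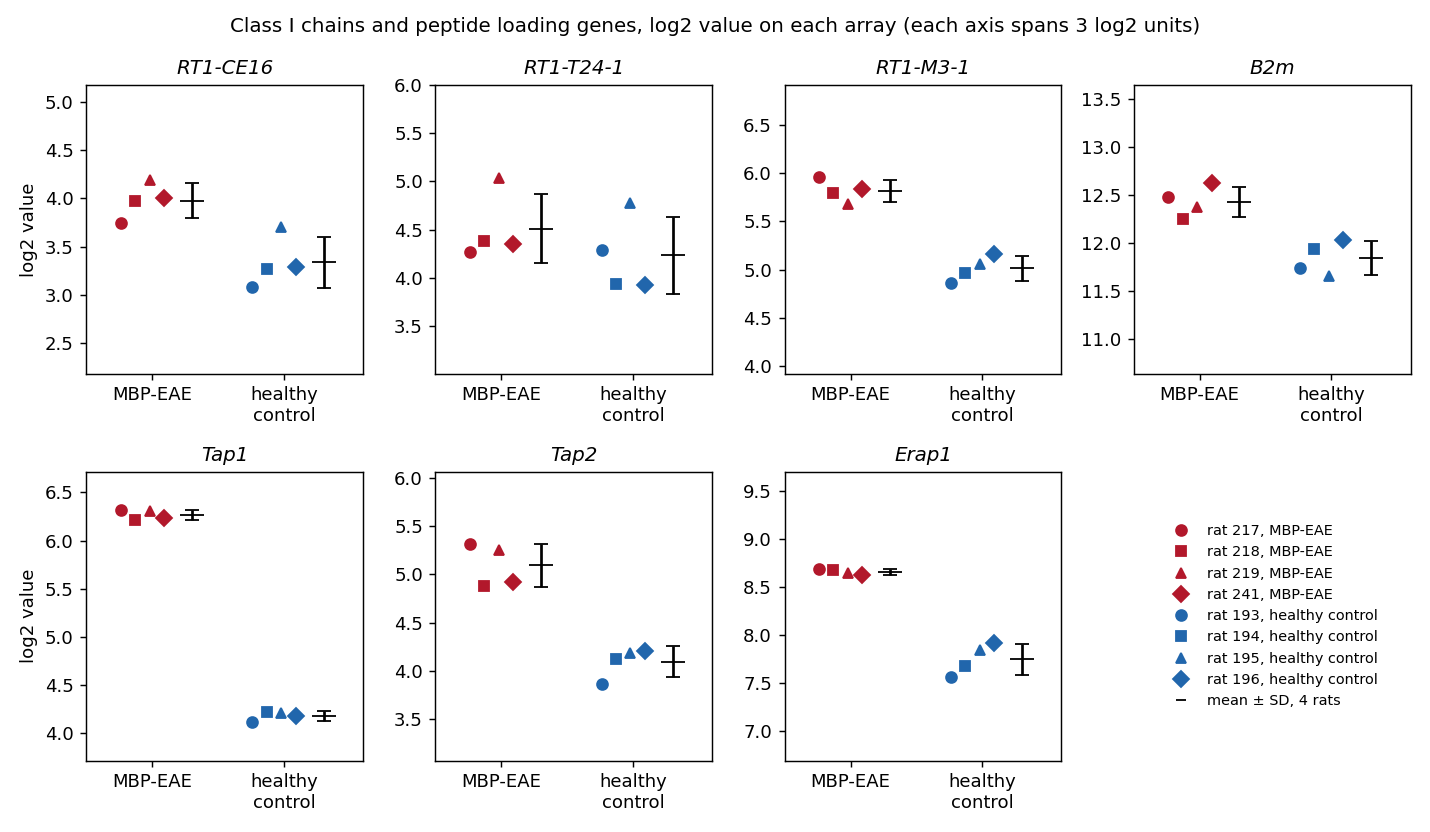
Log2 value of each of the 7 genes on each of the 8 arrays, with MBP-EAE (red) left of healthy control (blue), 1 symbol per rat, and the mean ± SD of 4 rats in black; each vertical axis spans 3 log2 units. The groups are separate for 6 genes, by the widest gap for Tap1, and overlap for RT1-T24-1.

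Tap1, a subunit of the peptide transporter, had log2 values of 6.31, 6.21, 6.30 and 6.24 in MBP-EAE rats 217, 218, 219 and 241, against 4.11, 4.22, 4.21 and 4.17 in healthy rats 193, 194, 195 and 196. The rats of a group lay close together, with a range of 0.10 in MBP-EAE and 0.11 in healthy controls, and a gap of 1.99 parted the groups. The log2 fold change was 2.09 (SE 0.08, 95% interval 1.90 to 2.27, adjusted p = 6.01e-08 from limma). The healthy values were near the lower quartile of the healthy arrays (3.87 to 4.28), the dim end of the array scale, where a fold is less certain.

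Tap2, its partner, had log2 values of 5.32, 4.88, 5.26 and 4.92 in MBP-EAE rats 217, 218, 219 and 241, against 3.86, 4.12, 4.18 and 4.21 in healthy rats 193, 194, 195 and 196. In rats, allelic forms of Tap2 differ in the peptides that they let through. The groups did not overlap, and within MBP-EAE rats 217 and 219 were higher than 218 and 241, as they also were, by a smaller margin, for Tap1. The log2 fold change was 1.0 (SE 0.13, 95% interval 0.71 to 1.30, adjusted p = 0.000412 from limma). In healthy controls Tap2 was also near the lower quartile of the arrays.

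The change in Tap1 minus Tap2 is given with a limit: in healthy controls both genes were near the lower quartile of the arrays, where a probe set may read mostly background, so that the size of either rise, and any ratio of the rises, is not fixed by these values. The Tap1 value minus the Tap2 value on the same array was 1.0 to 1.33 in MBP-EAE and -0.03 to 0.26 in healthy controls. The mean difference was 1.17 ± 0.18 (SD, n = 4) in MBP-EAE and 0.09 ± 0.12 (SD, n = 4) in healthy controls, a change of 1.08 (SE 0.11). A two-sided exact permutation test gave p = 0.0286, which is as low as groups of 4 can reach, and 0.0429 after adjustment over the 3 pairs compared. The part of probe response in this difference was not tested.

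Erap1, which trims peptides in the endoplasmic reticulum to the length that class I molecules hold, had log2 values of 8.68, 8.67, 8.64 and 8.63 in MBP-EAE rats 217, 218, 219 and 241, against 7.56, 7.67, 7.84 and 7.92 in healthy rats 193, 194, 195 and 196. The MBP-EAE rats differed by no more than 0.06, the healthy rats by 0.35, and the groups were apart by 0.71. The log2 fold change was 0.91 (SE 0.10, 95% interval 0.68 to 1.13, adjusted p = 0.000128 from limma). The Erap1 value minus the Tap1 value averaged 2.39 ± 0.05 (SD, n = 4) in MBP-EAE and 3.57 ± 0.14 (SD, n = 4) in healthy controls, with the same limit for the dim healthy values of Tap1 (change -1.18, SE 0.08; exact permutation p = 0.0286, adjusted p = 0.0429).

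B2m, the light chain that every classical class I heavy chain needs at the surface, had log2 values of 12.48, 12.25, 12.37 and 12.62 in MBP-EAE rats 217, 218, 219 and 241, against 11.75, 11.94, 11.66 and 12.04 in healthy rats 193, 194, 195 and 196. The groups did not overlap, with a gap of 0.22. The log2 fold change was 0.59 (SE 0.12, 95% interval 0.32 to 0.85, adjusted p = 0.00553 from limma). B2m was already at the upper end of the array range in healthy controls, where 99.8% of clusters had a lower value.

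The heavy chain RT1-M3-1 belongs to the non-classical class I genes, and its mouse counterpart H2-M3 presents N-formylated peptides. Its log2 values were 5.96, 5.80, 5.69 and 5.83 in MBP-EAE rats 217, 218, 219 and 241, against 4.86, 4.97, 5.06 and 5.16 in healthy rats 193, 194, 195 and 196. The groups were apart by 0.52, and the log2 fold change was 0.81 (SE 0.10, 95% interval 0.58 to 1.04, adjusted p = 0.000321 from limma).

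RT1-CE16, a heavy chain gene of the RT1-C/E region, was dim. Its log2 values were 3.74, 3.97, 4.19 and 4.00 in MBP-EAE rats 217, 218, 219 and 241, against 3.08, 3.27, 3.71 and 3.29 in healthy rats 193, 194, 195 and 196. The groups did not overlap, but the lowest MBP-EAE value (rat 217) exceeded the highest healthy value (rat 195) by 0.04 only, and every healthy value lay below the lower quartile of its array. The log2 fold change was 0.64 (SE 0.15, 95% interval 0.31 to 0.97, adjusted p = 0.0103 from limma). The interquartile range was 2.63 to 2.90 on the MBP-EAE arrays, 2.61 to 2.93 on 3 healthy arrays and 2.23 on that of rat 195, which gave the highest healthy value for the dim RT1-CE16 and RT1-T24-1 and the lowest for B2m. Without rat 195 the log2 fold change was 0.77 for RT1-CE16, 0.46 for RT1-T24-1 and 0.52 for B2m, and the same genes passed the test.

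RT1-T24-1, a heavy chain gene that is also listed under the name of mouse H2-T24, had log2 values of 4.27, 4.39, 5.04 and 4.35 in MBP-EAE rats 217, 218, 219 and 241, against 4.29, 3.94, 4.77 and 3.93 in healthy rats 193, 194, 195 and 196. Rat 219 was the highest in MBP-EAE and rat 195 the highest in healthy controls, and the groups overlapped. The log2 fold change was 0.28 (SE 0.22, 95% interval -0.22 to 0.77, adjusted p = 0.403 from limma), so that neither no change nor a rise of the size seen for B2m was outside the interval. A second cluster that the platform table assigns to RT1-T24-1 together with another gene had a log2 fold change of 0.19 (adjusted p = 0.648).

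The heavy and light chain cannot be compared closely within an array, since RT1-CE16 was among the dimmest clusters in healthy controls and B2m near the top of the scale. RT1-CE16 minus B2m averaged -8.45 ± 0.26 (SD, n = 4) in MBP-EAE and -8.51 ± 0.37 (SD, n = 4) in healthy controls, a change of 0.06 (SE 0.23; two-sided exact permutation test, p = 0.83). These values do not show whether the 2 genes changed alike.

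**Figure D2:**
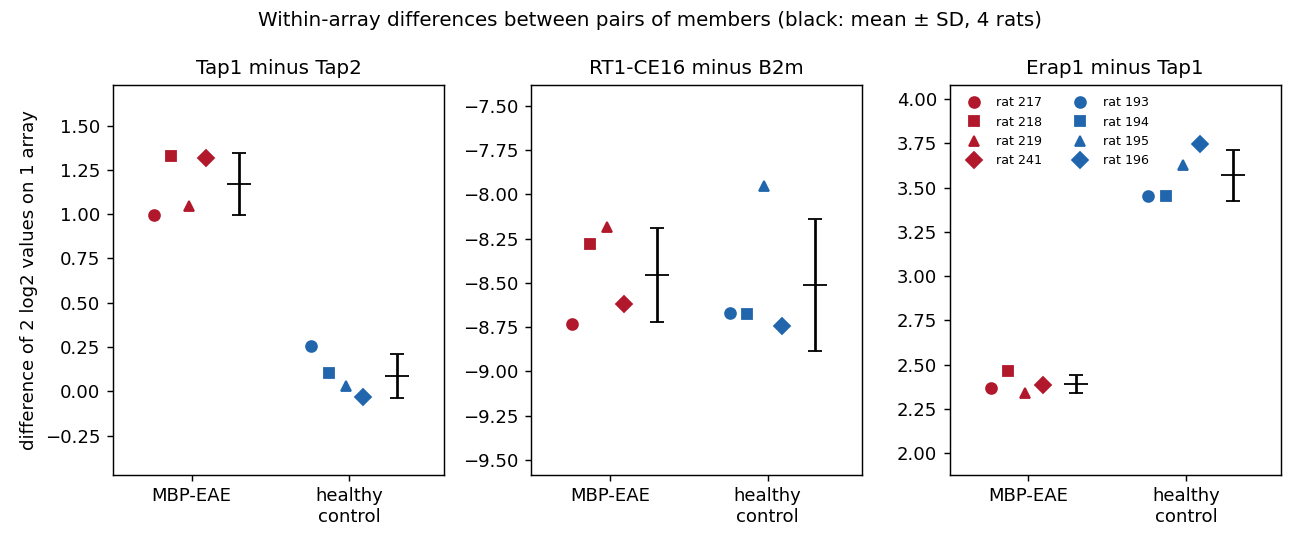
Difference of the log2 values of 2 genes on the same array, for each rat, with MBP-EAE (red) left of healthy control (blue) and the mean ± SD of 4 rats in black. Tap1 minus Tap2 was higher in all 4 MBP-EAE rats (1.0 to 1.33, against -0.03 to 0.26), Erap1 minus Tap1 was lower in all 4, and RT1-CE16 minus B2m overlapped.

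Most other clusters with RT1 class I symbols did not pass the test. Nor did most of all clusters, of which 25.9% passed in either direction. Class I genes of the rat are many and near-identical, so that a cluster may also read the transcripts of related genes, and the heavy chain values are those of the cluster. Of 6 further class I genes with a cluster of their own, 0 were higher and 1, RT1-O1, was lower in MBP-EAE, at 3.71, 3.02, 3.96 and 4.10 in rats 217, 218, 219 and 241, against 4.47, 4.79, 4.22 and 4.93 in rats 193, 194, 195 and 196 (difference -0.90, SE 0.24, limma adjusted p = 0.0196). Those values are dim, and RT1-O1 did not pass without rat 194 (adjusted p = 0.0551) or rat 196 (0.0612). At an unadjusted p under 0.05, 3268 of all clusters differed. Over the 6, log2 fold changes had a median of -0.14. A further 11 clusters carry several RT1 class I symbols and are not named. Of these, 3 were higher (1.51-fold, 1.56-fold and 2.54-fold) and 0 lower, so that of the 20 clusters with class I RT1 symbols alone in the platform table, 5 were higher, 1 lower and 14 did not pass. A class I transcript read by one of the 781 clusters with no symbol in that table is not among the 20, and the 20 do not stand for all class I genes. The study's list of most raised genes includes a class I gene, Rt1-a1, with a larger fold change than any of these 20. Of all clusters, 11.3% were higher and 14.6% lower. Among the 9 class II clusters, whose products present peptides to CD4 T cells, 7 were higher. The median of the 9 log2 fold changes was 2.98 and the largest rise 121-fold, that of RT1-Da. Healthy values of RT1-Da (3.82 to 4.36) were near the lower quartile of the arrays, where a fold is less certain. The difference between the 2 classes was not tested.

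**Figure D3:**
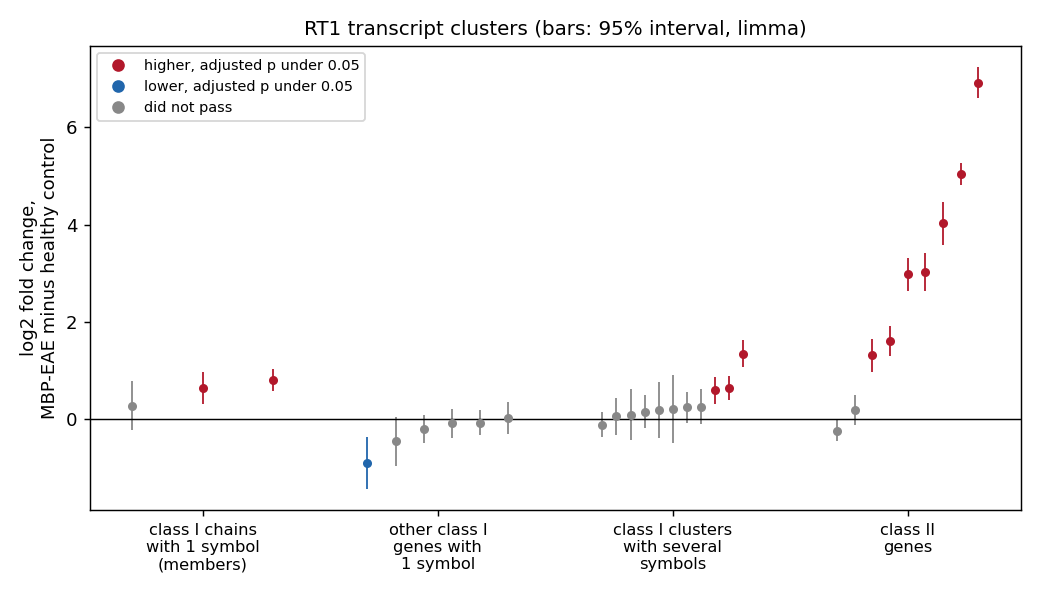
Log2 fold change (MBP-EAE minus healthy control) of RT1 transcript clusters with 95% intervals from limma, for the class I heavy chains described here, other class I genes with 1 symbol, class I clusters with several symbols, and class II genes. The 20 class I clusters named by the platform table, which do not stand for all class I genes, lay between -0.90 and 1.34 and class II clusters between -0.24 and 6.92.

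Of 39 measured genes in 8 lists of the wider class I pathway, 18 were higher and 2 lower in MBP-EAE, and 19 did not pass, with a median log2 fold change of 0.29. The lists were written with earlier results of these arrays known. The immunoproteasome replaces subunits of the standard proteasome and favours peptides that fit class I molecules. Its subunit genes Psmb9 and Psmb8, which flank Tap1 in the genome, were 7.94-fold and 3.84-fold higher. Psmb9 had log2 values of 6.82, 6.90, 6.90 and 6.79 in rats 217, 218, 219 and 241, against 3.76, 4.05, 3.76 and 3.88 in rats 193, 194, 195 and 196 (a rise of 2.99 ± 0.10 log2 units, SE, limma adjusted p = 1.78e-08). Psmb8 had a log2 fold change of 1.94 (SE 0.14, adjusted p = 6.17e-06). In healthy controls every Psmb9 value lay below the lower quartile of its array and Psmb8 was near it, so that the size of these rises is less certain. In MBP-EAE Psmb8, like Tap2, was higher in rats 217 and 219 than in 218 and 241. The third measured gene of that list, the proteasome activator subunit Psme3, had a log2 fold change of 0.29 (adjusted p = 0.0764), and Psmb7, the 1 measured catalytic subunit of the standard proteasome, 0.33 (adjusted p = 0.205).

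Of 3 measured partners of the loading complex, 2 were higher. The chaperone calreticulin (Calr) rose 2.10-fold, by 1.07 ± 0.18 log2 units (SE, limma adjusted p = 0.00170), and the thiol oxidoreductase Pdia3 rose 1.40-fold, by 0.49 ± 0.13 log2 units (adjusted p = 0.0220), while calnexin (Canx), the membrane-bound chaperone, had a log2 fold change of -0.16 (adjusted p = 0.274). Pdia3 did not pass without rat 217 (adjusted p = 0.0693) or rat 241 (adjusted p = 0.0566). Among 5 measured peptidases of cytosol and endosomes, 1 was higher, the leucine aminopeptidase Lap3 (log2 fold change 0.70, SE 0.13, adjusted p = 0.00343). Of 5 class I-like molecules, 0 were higher and 1 was lower, Azgp1 (log2 fold change -0.43, SE 0.12, adjusted p = 0.0213). Azgp1 was dim, at 3.22 to 3.70 in MBP-EAE and 3.78 to 3.99 in healthy controls, and did not pass without rat 196, 218 or 241 (adjusted p = 0.0541 to 0.0621).

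Listed regulators of class I transcription, interferon signalling genes among them, were higher in 9 of 11 cases and lower in 0. The transcription factor Irf1, which binds ISRE sequences, rose 8.28-fold, by 3.05 ± 0.10 log2 units (SE, limma adjusted p = 2.13e-08), Irf8, a factor of myeloid cells, 4.74-fold (adjusted p = 7.97e-08) and Stat2, which signals from type I interferon receptors, 3.96-fold (adjusted p = 1.05e-06). Interferon gamma itself (Ifng, named after its values were seen) had log2 values of 4.08, 4.36, 4.45 and 4.22 in rats 217, 218, 219 and 241, against 3.29, 3.83, 3.41 and 3.18 in rats 193, 194, 195 and 196 (adjusted p = 0.00226 from limma). It was 1.80-fold higher, with all healthy values below the lower quartile of their arrays. Irf1 was near the lower quartile in healthy controls (3.83 to 4.12), where a fold is less certain.

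**Figure D4:**
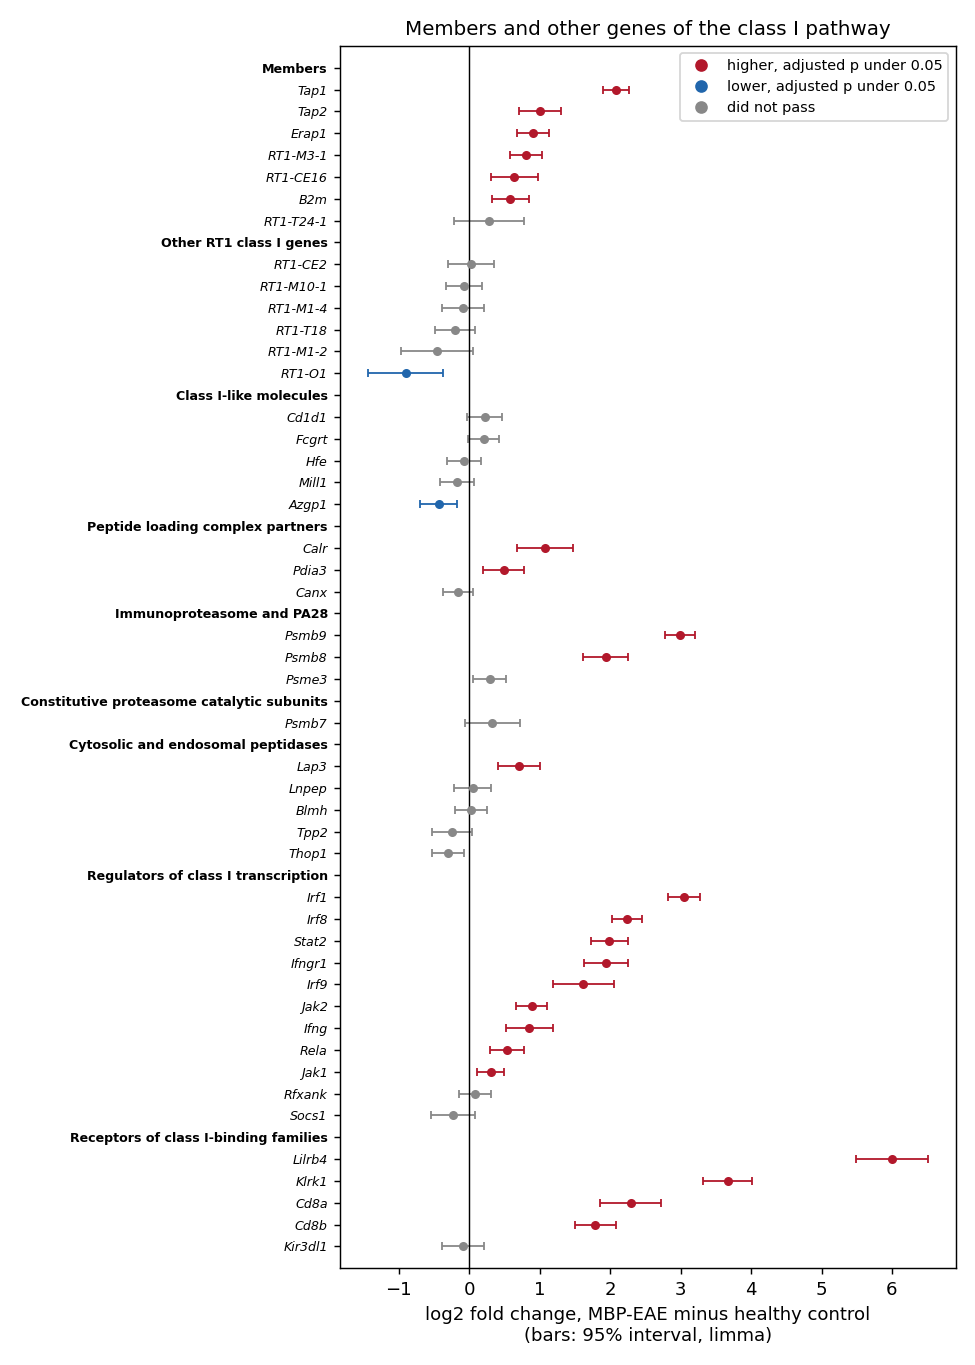
Log2 fold change (MBP-EAE minus healthy control) with 95% intervals from limma for the 7 genes and the other measured genes of 8 class I pathway lists, with colour for the test result. Psmb9, Irf1 and the receptor genes Klrk1 and Lilrb4 lie at 2.99, 3.05, 3.67 and 6.0.

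Receptor genes of families that bind class I or class I-like molecules were also higher. Of 5 measured 4 were higher and 0 lower. Cd8a, the co-receptor chain of class I-restricted T cells that rat NK cells and some macrophages also carry, rose 4.89-fold, by 2.29 ± 0.19 log2 units (SE, limma adjusted p = 1.54e-05). Klrk1, an activating receptor for class I-like stress ligands, was 12.7-fold higher (limma adjusted p = 7.97e-08). Lilrb4, of the leukocyte immunoglobulin-like receptor family, was 64.0-fold higher (adjusted p = 4.22e-08). Every healthy value of Klrk1 (3.14 to 3.69) and Lilrb4 (3.20 to 3.88) lay below the lower quartile of its array, where a fold is less certain. Healthy values of Cd8a (3.92 to 4.77) lay below the median of their arrays.

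Markers of several immune cell types were also higher in MBP-EAE. All 5 measured T cell markers were higher, with a summed linear signal of 535 to 655 in MBP-EAE and 83.4 to 111 in healthy controls, among them the receptor-complex gene Cd3d (3.94-fold). Every healthy Cd3d value (3.48 to 4.06) lay below the lower quartile of its array, where a fold is less certain. The summed signal of the monocyte and macrophage markers (5 of 5 higher) was 4972 to 6178 in MBP-EAE and 258 to 388 in healthy controls, and that of the microglia markers (2 of 2 higher) was 1541 to 1745 in MBP-EAE and 486 to 593 in healthy controls. Cd4, on the T cell list, is made by rat macrophages as well. It was the brightest of that list in MBP-EAE (mean log2 value 8.50, against 5.75 for Cd3d) and weighs most in the T cell sum. Lyz2 (mean 12.01 in MBP-EAE) weighs most in the monocyte and macrophage sum. The 1 measured B cell marker, Cd79b, was 1.25-fold higher (23.0 to 25 in MBP-EAE, 18.0 to 21.8 in healthy controls). For NK cells 1 of 3 markers was higher (85.3 to 112 in MBP-EAE, 64.0 to 95.6 in healthy controls), and the defining marker Ncr1 had a log2 fold change of -0.18 (adjusted p = 0.319). Endothelial markers did not pass (0 of 2; 166 to 188 in MBP-EAE, 161 to 212 in healthy controls). Among the cells of the cord itself, 2 of 4 astrocyte markers were higher (3160 to 4281 in MBP-EAE, 2562 to 4892 in healthy controls), 3 of 4 oligodendrocyte markers were lower (3618 to 4609 in MBP-EAE, 4718 to 5821 in healthy controls) and 2 of 3 neuronal markers were lower (8904 to 10228 in MBP-EAE, 11827 to 13561 in healthy controls). No deposited value was 0. Which cells carried the class I transcripts, and the part of cell numbers in these results, was not tested. Of the tissue's defining markers, the myelin gene Mbp averaged 10.81 ± 0.15 in MBP-EAE and 11.41 ± 0.09 in healthy controls (log2, SD, n = 4 each). It was lower by the test (limma adjusted p = 0.00230). The neuronal gene Snap25 averaged 12.20 ± 0.10 in MBP-EAE and 12.45 ± 0.08 in healthy controls and did not pass (adjusted p = 0.0752).

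For each gene that was higher, the clusters with the most similar profile were those with the smallest root mean square difference of centred log2 values over the 8 arrays, out of 7596 clusters with 1 other symbol. For B2m these were Rab8b (0.04), Insig2 (0.06) and Rap1b (0.07), and for Tap1 Inpp5d (0.09), Casp8 (0.10) and Trpm2 (0.11). Il18 was the nearest for both Tap2 (0.11) and Erap1 (0.08), followed by Zc3hav1 and Plcg2 (both 0.12) for Tap2 and by Jak2 (0.08) and Kcnn4 (0.09) for Erap1. RT1-M3-1 was nearest to Bak1 (0.07), Tnfrsf1a (0.09) and Ctbs (0.09), and RT1-CE16 to Maf (0.10), Il21r (0.11) and Tmpo (0.13). The difference between the groups is part of each of these profiles.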

How the data were processed

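Spinal cord RNA of 4 MBP-EAE rats and 4 healthy control rats was hybridised to Affymetrix Rat Exon 1.0 ST arrays, 1 array for each rat. RMA background correction that took GC content into account was applied by the authors, who quantile-normalized all arrays, took the mean over core probe sets for a gene and deposited log2 values of 8793 transcript clusters. The submitters' processing notes name Affymetrix Expression Console, RMA, Partek and the build rn4.
The deposited log2 values were used as they stand. Groups came from the sample labels, which give no batch. The fits across clusters used lmFit and eBayes of limma 3.58.1 (R 4.3.3) without covariates, with Benjamini-Hochberg adjustment over all clusters and a threshold of 0.05. The methods of the study used an analysis of variance and found no batch effect. Differences between 2 genes on an array were tested with the exact permutation test of scipy 1.17.1 for 3 pairs. The script was checked on simulated data. Genes were named by the platform table, in which 7603 clusters have 1 symbol, 409 several and 781 none.
The members and lists were chosen with earlier results of these data known. Named genes are all members, up to 3 called genes of each list with the largest change, called genes against a list's majority, all genes of lists with 4 or fewer measured, and the 3 nearest profiles of each called member. A gene with several clusters was represented by the brightest. Alternatives were 2 filters on dim clusters, 3 normalizations, weights per array, the methods' t-test, a trended and robust prior, clusters with 1 symbol, and each rat left out in turn. Promoter windows are from RefSeq (GRCr8). Summed linear signals are the antilogs of the log2 values, added over a list. The number of arrays limits the precision.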

Additional observations from a re-analysis of the deposited data

Results flagged for a closer look

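RT1-T24-1 in MBP-EAE rat 219, at a log2 value of 5.04, stood apart from the other 3 MBP-EAE rats (4.27 to 4.39), by a gap of 0.85 of the group's range, past Dixon's critical value for 4 samples at the 95% level. Chance alone gives such a gap in about 1 of 20 groups, and 14 groups were checked, of which 1 was past it. Without rat 219 the log2 fold change of RT1-T24-1 was 0.10 (adjusted p = 0.754 from limma), and it did not pass the test with or without this rat.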

How the results depend on the processing

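The 6 genes called higher kept their direction and passed the test under each of the 17 alternatives in which they were measured. The filters on dim clusters leave out RT1-CE16 (both filters) and Tap2 and RT1-T24-1 (the stricter filter), which leaves 5 and 4 genes called. Without 1 rat the log2 fold change was 2.06 to 2.10 for Tap1, 0.92 to 1.07 for Tap2, 0.84 to 0.96 for Erap1, 0.76 to 0.86 for RT1-M3-1, 0.56 to 0.77 for RT1-CE16 and 0.52 to 0.65 for B2m. RT1-T24-1 did not pass under any alternative (0.10 to 0.46 without 1 rat). Over all clusters, 1280 were lower with the values as deposited, 2222 with array weights and 835 to 1441 without 1 rat (835 without rat 196, 850 without rat 217). Of called clusters 43.7% were higher as deposited (994 and 1280) and 58.1% after cyclic loess (1373 and 991). Of the pathway genes 2 were lower as deposited, 1 after repeated quantile normalization, 0 after cyclic loess, 0 among clusters above the median and 0 to 4 without 1 rat (4 without rat 193, 1 without rat 194, 218 or 241, 0 without rat 196); 16 to 21 were higher. RT1-O1 did not pass with the methods' t-test (adjusted p = 0.0750, Benjamini-Hochberg), repeated quantile normalization (0.0564) or cyclic loess (0.0641), nor Azgp1 after the last 2 (0.112 and 0.120). Pdia3 did not pass with arrays centred on their median (0.0535). Psme3 passed with array weights (0.0238), cyclic loess (0.00573) and the stricter filter (0.0465), and Psmb7 with cyclic loess (0.0414). The cause was not tested. No paired analysis was possible because the rats of the groups share no number. The near-identical class I genes and the dim values of RT1-CE16, RT1-T24-1 and RT1-O1 limit what their clusters show.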
